A study of Mus musculus with 4 samples.

Results

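The genes described here encode the proteasome: its core subunits, its regulators and the factors that assemble it. They were taken by name, as every gene whose symbol starts with Psm, one letter from a to g and a number, and 49 of the 13976 genes in the deposited table met this rule. By role they were 7 alpha and 7 constitutive beta subunits of the 20S core, 3 inducible catalytic subunits (Psmb8, Psmb9 and Psmb10), 2 subunits of the PA28 activator (Psme1 and Psme2), 6 ATPases and 11 non-ATPases of the 19S cap, 7 assembly factors and 3 other activators or inhibitors. The last 3 members were Psma8, an alpha subunit known from testis, Psme2b, a copy of Psme2, and Psmc3ip, a recombination factor that carries the name without being a proteasome subunit. Psmb8, Psmb9, Psmb10, Psme1 and Psme2 were held apart from the 31 constitutive subunits of the 20S and the 19S. Psmb11, the thymus subunit, and 4 annotated pseudogenes that also meet the name rule were not analysed here.

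RNA was sequenced in bulk from 4 myeloid populations sorted from EO771 tumours, which grow in mice from a mammary carcinoma cell line. The populations were CD103+ conventional dendritic cells of type 1 (cDC1), CD11b+ conventional dendritic cells of type 2 (cDC2), CD11b+ dendritic cells with intermediate CD103 (CD103int DC) and macrophages, with 1 library each. The labels give the populations by surface marker and tumour only. Mouse strain, age, number of mice per library and the gates are not stated, nor whether the mice had received the heterodimeric interleukin-15 of the study's title. In bulk RNA, fewer cells of a type and less RNA per cell cannot be told apart.

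The proteasome degrades proteins tagged with ubiquitin and is the main source of the peptides shown on MHC class I. Its 20S core is a stack of alpha and beta rings, in which Psmb5, Psmb6 and Psmb7 carry the active sites, and the 19S cap binds, unfolds and feeds in the substrate. Interferon gamma induces Psmb8, Psmb9 and Psmb10, which take the places of Psmb5, Psmb6 and Psmb7 and turn the core into the immunoproteasome, and it also induces the PA28 activator. Dendritic cells are known to carry immunoproteasomes without stimulation.

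All levels are in CPM (a gene's reads per 1000000), after the authors' scaling of library sizes. Where 4 values follow each other they stand in the order cDC1, cDC2, CD103int DC, macrophage. A difference is one of log2(CPM + 1), and a gene was called when it differed by at least 2-fold on that scale with at least 10 CPM in the higher library. Fold values for single genes are ratios of CPM, and ranges in brackets are 95% intervals for counting error. No population had a replicate, so no difference was checked against variation between animals or sorts, and no p-value is given.

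The libraries held an estimated 44425908 to 63817502 reads. Of the 49 members, 44 reached 10 CPM in the higher library of every pair, and the other 5 were Psmg1, Psmg2, Psmg3, Psma8 and Psmc3ip. The columns summed to between 905670 and 1169346 CPM, and rescaling them to equal totals moved the median difference over all genes by 0.36 (cDC1), 0.26 (cDC2) and 0.25 (CD103int DC) against macrophages. The 8 cDC1 markers summed to 2841 CPM in the cDC1 library and to 623 to 823 CPM in the others. The 10 macrophage markers, all measured, summed to 781, 4360, 2693 and 4017 CPM, so that the cDC2 library was at the level of the macrophage library. The 7 cDC2 markers summed to 1374, 2183, 2549 and 2454 CPM (Clec4a4 at 0 in cDC1). On this sum the cDC2 library stood below CD103int DC and macrophages. Of these markers, Irf4, Clec10a and Cd209a were highest in cDC1 and lowest in cDC2 (Cd209a 257, 31.5, 78.8 and 68.9 CPM). Itgam, Sirpa, Mgl2 and Clec4a4 were not highest in cDC1. The 5 pan-DC markers summed to 1574, 1538, 1416 and 654 CPM. Among them Itgax was highest in cDC2, whereas Flt3, Zbtb46, Dpp4 and Bcl11a were highest in cDC1. The 5 plasmacytoid DC markers summed to 713, 172, 133 and 261 CPM, highest in cDC1. The 4 monocyte markers summed to 974, 1196, 1152 and 4310 CPM, the 6 T cell markers to between 7.19 and 34.0 and the 5 NK cell markers to between 0.853 and 11.7 (Klrb1c at 0 in cDC1). The part of these cells in the results was not tested. The macrophage column had another name prefix than the 3 DC columns, which the labels do not explain. A difference of that kind and the cell type cannot be told apart.

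Upstream sequences were looked up in RefSeq (GRCm38.p6) as windows of 300 bases, 250 before and 50 after each start, for 41 of the 49 members (44 windows). They were searched on both strands for GAAA with any 2 bases and GAAA after it, the core of the interferon-stimulated response element, for TTCNNNGAA, the gamma-activated site known as GAS, and for TGACNNNGC, the antioxidant response element that NRF1 and NRF2 bind. These motifs were held by 5, 3 and 6 of the 44 member windows and by 3.44%, 8.3% and 12.4% of all 32851 windows. The genes with the sequences below have values that the results turn on: the constitutive catalytic subunits Psmb5 and Psmb6, and Psmb10 and Psme2, which shared an order of levels. Capitals mark a motif, and each stretch lies outside annotated exons.
Psmb5, chr14:54618023-54618142, minus strand: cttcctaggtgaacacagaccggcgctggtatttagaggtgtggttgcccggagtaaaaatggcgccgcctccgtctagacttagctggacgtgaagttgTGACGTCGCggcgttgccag
Psmb6, chr11:70525237-70525356, plus strand: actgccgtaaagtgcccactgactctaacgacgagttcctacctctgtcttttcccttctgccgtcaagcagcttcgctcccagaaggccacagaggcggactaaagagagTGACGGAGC
Psmb10, chr8:105938445-105938564, minus strand: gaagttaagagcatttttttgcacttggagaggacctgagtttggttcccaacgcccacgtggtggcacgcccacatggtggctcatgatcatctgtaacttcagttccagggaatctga
Psme2, chr14:55591114-55591233, minus strand: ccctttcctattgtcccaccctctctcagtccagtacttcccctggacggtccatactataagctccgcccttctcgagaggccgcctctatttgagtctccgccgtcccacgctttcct
Psmb5 and Psmb6 each held a TGACNNNGC match, whose first base lay 47 and 9 bases before the RefSeq start, from which all distances here are counted. None of the 3 motifs was found in the windows of Psmb10, Psme2 or Psmb9. Psmb8 held the GAS match TTCCCAGAA, 97 bases before its start, and Psme1 held TTTCGCTTTC, the response element core read on the other strand, from base 10 after its start. Psme4, an activator described below, held GCAGCGTCA, a TGACNNNGC match on the other strand, 7 bases before its start. The gene coordinates given below come from another annotation. By those, the matches of Psmb8 (chr17:34198098-34198106), Psme1 (chr14:55578503-55578512) and Psme4 (chr11:30771768-30771776) lie inside the gene, after its start. Psmb7 had no window in the table.

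As deposited, the constitutive core and cap subunits stood at similar levels in the 4 libraries. For the 31 subunits, the ratio of the highest to the lowest library had a median of 1.28, and 30 of 31 (96.8%) stayed under 2-fold. Over the 8699 genes that reached 10 CPM somewhere the median was 1.64 and 66.8% stayed under 2-fold. Among the 3035 genes whose mean level lay in the range of the subunits (47.0 to 280 CPM), the median was 1.60 and 68.6% stayed under 2-fold. With equal totals the medians were 1.55 for the subunits, of which 31 of 31 stayed under 2-fold, and 1.71 for all genes, of which 63.6% did. Between libraries the order of the subunits' own levels was also alike, with Pearson's r of log levels across the 31 subunits between 0.90 (cDC1 and macrophage) and 0.99 (cDC2 and CD103int DC). These correlations run across genes of one complex and share each gene's length, so they are descriptions.

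Few members were called in any pair. Between cDC1 and cDC2, where 16.8% of genes were called, 0 of 44 members were, and between cDC1 and CD103int DC, where 14.6% of genes were called, it was again 0 of 44. Between cDC1 and macrophages 2 of 44 members were called against 25% of genes, and both, Psme4 and Psme2b, were lower in cDC1, a direction in which 15.8% of genes were called. Between cDC2 and CD103int DC it was 0 of 44 members and 2.23% of genes. Against macrophages, cDC2 had 1 of 44 members called (7.79% of genes in either direction, 6.01% lower in cDC2) and CD103int DC had 1 of 44 (12.7% in either direction, 8.31% lower in CD103int DC). That member was Psme2b in both pairs.

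A threshold of 1.5-fold showed the members with moderate differences. It took 2 of 44 members between cDC1 and cDC2 (Psmb6 and Psmb10; 32.7% of genes), 1 between cDC1 and CD103int DC (Psmb6; 29.2%) and 0 between cDC2 and CD103int DC (7.22%). Against macrophages it took 6 members in cDC1 (Psmb10, Psmd5, Psmd9, Psme2, Psme2b and Psme4; 44.8% of genes), 2 in cDC2 (Psme2b and Psme4; 24.3%) and 4 in CD103int DC (Psma4, Psmd5, Psme2b and Psme4; 31.2%). In each pair the members' share was below that of all genes.

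**Figure D1:**
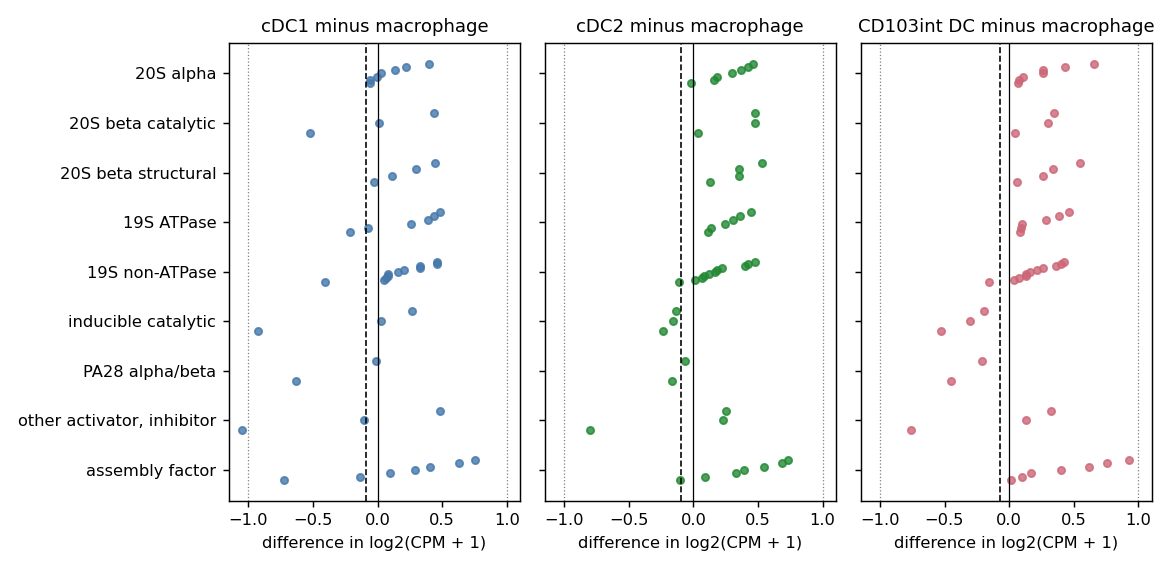
Difference in log2(CPM + 1) of each DC library minus the macrophage library for 46 members, 1 point per gene, grouped by role; Psma8, Psme2b and Psmc3ip are not drawn. The solid line marks 0, the dashed line the median over all genes (-0.09, -0.09 and -0.07) and the dotted lines a 2-fold difference. The core and cap subunits lie mostly to the right of the dashed line, and the single point past the 2-fold line is Psme4 in cDC1.

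Within the narrow range, the macrophage library tended to hold the lowest value. Of the 31 constitutive subunits, 23 were lowest in macrophages and 8 in cDC1, and none was lowest in cDC2 or CD103int DC. With the columns rescaled to equal totals these numbers were 29 and 2. The median difference from macrophages was 0.14 in cDC1, 0.24 in cDC2 and 0.26 in CD103int DC, with 23, 29 and 30 of 31 subunits above 0. Relative to the median of all genes the offsets were 0.23, 0.34 and 0.33, and with equal totals 0.24, 0.34 and 0.34. Between subunits these differences from macrophages had SDs of 0.25, 0.17 and 0.18 over the 31 genes. The 15 proliferation genes on the list had median differences from macrophages of 1.89, 0.74 and 1.71. They were thus also above macrophages in each DC library, but in another order than the subunits, being largest in cDC1. Their part in the subunit differences was not tested. Between cDC2 and CD103int DC the subunits differed least, with a median of 0.03 and an SD of 0.08, while the proliferation genes there had a median of -1.02.

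The 7 alpha subunits, which form the outer rings and the gate of the core, ranged from 97.4 to 154 CPM over all libraries. Psma4 varied most, at 129, 134, 154 and 97.4 CPM, and was 1.58-fold (1.53 to 1.64) higher in CD103int DC than in macrophages. Psma7 varied least, at 134, 137, 146 and 139 CPM, with all libraries within 1.09-fold. The others reached ratios of highest to lowest between 1.12 (Psma1) and 1.35 (Psma3). Read sharing touched Psma3 and Psma4 little: the reads they divided with the processed pseudogenes Gm13835 and Gm6542 left between 98.5% and 99.5% of the sum with Psma3 and between 99.4% and 99.7% with Psma4.

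Of the 4 structural beta subunits, which shape the inner rings without an active site, Psmb1 differed most. It was at 134, 142, 144 and 97.8 CPM, lower in macrophages than in each DC library, with a ratio of highest to lowest of 1.47. Psmb4 differed least, at 181, 202, 193 and 184 CPM. Psmb2 and Psmb3 were lowest in macrophages too, at 52.6 and 73.4 CPM.

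The 3 constitutive catalytic subunits behaved unlike one another. Psmb5, which carries the chymotrypsin-like site (chr14:54614119-54618022, minus strand), was the most even of the 31 subunits as deposited, at 81.7, 82.9, 83.5 and 81.0 CPM, a ratio of 1.03. With equal totals its ratio was 1.30, and Psmd8 (1.15) and Psma7 (1.26) were more even. Psmb6, with the caspase-like site (chr11:70525367-70527858, plus strand), was the most uneven as deposited, at 74.3, 150, 132 and 107 CPM, and with equal totals came second to Psma4 (1.88 against 1.90). It was 2.01-fold (1.93 to 2.10) lower in cDC1 than in cDC2, and on log2(CPM + 1) the difference fell just short of the threshold. Psmb10 came next in this pair, at a difference of 0.69. The estimated reads of Psmb6 were whole numbers in all 4 libraries (tolerance 0.01) and showed no division with another gene. Psmb7, with the trypsin-like site (chr2:38588036-38644087, minus strand), was at 156, 160, 146 and 115 CPM, lowest in macrophages. Its reads and those of the overlapping Nek6 on the opposite strand were fractions in 3 libraries and added up to whole numbers in all 4 (tolerance 0.015), so reads had been divided between them. Nek6 was at 53.6, 56.5, 63.4 and 24.4 CPM.

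The inducible catalytic subunits did not move together. Psmb8, which replaces Psmb5 (chr17:34197721-34201454, plus strand), was at 369 (363 to 374), 329 (324 to 334), 315 (311 to 320) and 361 (356 to 366) CPM. Its highest library, cDC1, exceeded its lowest, CD103int DC, by 1.17-fold (1.15 to 1.19). This ratio of highest to lowest was smaller than that of 3 of the 4 structural beta subunits. With equal totals the lowest library was macrophages (310 CPM), and cDC1 (409 CPM) exceeded it by 1.32-fold.

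Psmb9, which replaces Psmb6, lies 9956 bases from Psmb8 on the opposite strand (chr17:34181987-34187764, minus strand). It was at 180 (176 to 184), 134 (131 to 137), 121 (118 to 124) and 150 (147 to 153) CPM. It was highest in cDC1 and 1.49-fold (1.44 to 1.54) lower in CD103int DC. The start of Psmb9 overlaps that of Tap1, the peptide transporter gene (chr17:34187553-34197225, plus strand), and the reads of the pair were divided: their sums were whole numbers in all 4 libraries although Psmb9 alone was not in 3 of them. Psmb9 held 28.2%, 22.2%, 23.4% and 19.1% of the summed level, which was 638, 602, 516 and 783 CPM. How many of these reads came from the overlap was not tested.

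Psmb10, which replaces Psmb7 (chr8:105935735-105938444, minus strand), showed another order. It was at 84.2 (81.7 to 86.8), 137 (133 to 140), 112 (109 to 114) and 161 (158 to 164) CPM. The cDC1 library was the lowest of the 4 and the macrophage library the highest, 1.91-fold (1.84 to 1.98) apart. With each library centred on its constitutive subunits this difference passed the 2-fold rule. cDC2 was 1.62-fold (1.56 to 1.69) and CD103int DC 1.33-fold (1.28 to 1.38) above cDC1. In cDC1, Psmb9 was therefore at its highest and Psmb10 at its lowest level of the 4 libraries.

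The genes of the PA28 activator, a cap that opens the core without ubiquitin, also differed from each other, although both were highest in macrophages as deposited. Psme1, the alpha subunit (chr14:55578123-55581529, plus strand), was at 249 (244 to 253), 240 (236 to 245), 217 (213 to 221) and 251 (247 to 255) CPM, a ratio of highest to lowest of 1.16. Its cDC1 and macrophage levels were the same within counting error, with a ratio of 0.991 (0.967 to 1.02) between them. Psme2, the beta subunit 5911 bases away (chr14:55587441-55591113, minus strand), was at 172 (168 to 176), 237 (233 to 242), 195 (191 to 199) and 266 (262 to 271) CPM. As deposited it followed the order of Psmb10, from cDC1 over CD103int DC and cDC2 to macrophages. This order was found in 4 of the 49 members (the others were Psme2b and Psmd8), and its share over all genes was not counted. Psme2 was 1.55-fold (1.51 to 1.59) higher in macrophages than in cDC1. With equal totals cDC1 stayed lowest for Psmb10 and Psme2, but cDC2 passed the macrophage library (142 against 138 CPM for Psmb10, 246 against 229 CPM for Psme2). Psme1 was then at 276, 249, 224 and 216 CPM, highest in cDC1 and lowest in macrophages.

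Psme2b, the copy of Psme2 on chromosome 11, was at 10.9, 15.7, 14.3 and 33.3 CPM, 3.06-fold (2.78 to 3.38) higher in macrophages than in cDC1. Its reads and those of Psme2 were fractions that added up to 8962, 11743, 12020 and 16361 whole reads. The counting had thus divided reads between them, with 5.96%, 6.19%, 6.81% and 11.1% given to Psme2b. Psme2b also lies within the genes Gm12185 and 9930111J21Rik1 on the same strand. Taken as a single entry, Psme2 and Psme2b were at 183, 253, 209 and 300 CPM, and no call remained for it. The calls of Psme2b are therefore uncertain.

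**Figure D2:**
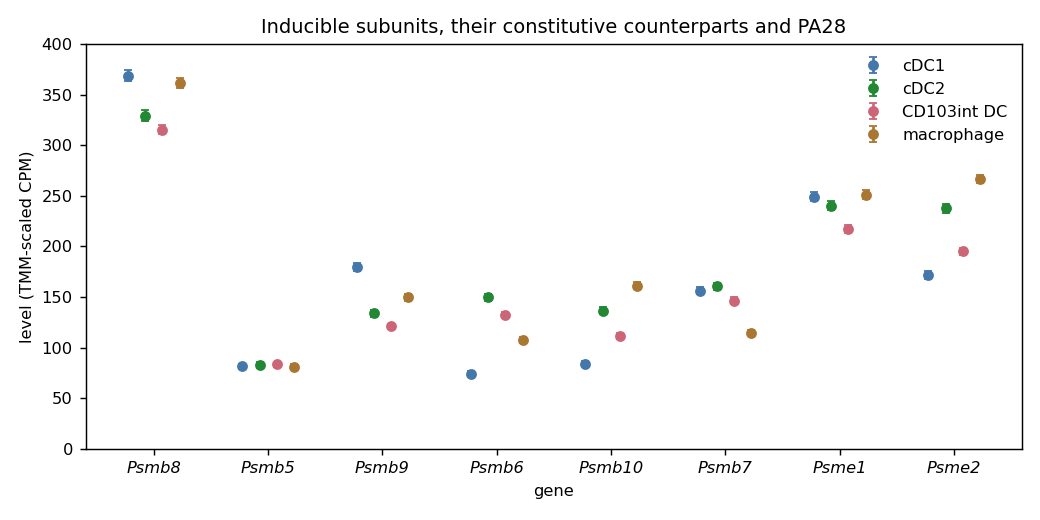
Levels in TMM-scaled CPM of the 3 inducible catalytic subunits, each beside the constitutive subunit it replaces, and of the 2 PA28 subunits. Points are single libraries in 4 colours and bars are 95% Poisson intervals for counting error. As deposited, Psmb5 is level across libraries, while in cDC1 Psmb6, Psmb10 and Psme2 are lowest and Psmb9 is highest.

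As a group, the 5 genes set apart had a median ratio of highest to lowest library of 1.49, above the 1.28 of the constitutive subunits and under the 1.64 of all genes. All 5 stayed under 2-fold and 3 of them under 1.5-fold. With equal totals their median was 1.32, below the 1.55 of the constitutive subunits, so this order depended on the scaling. Against macrophages, 0 of 5 were higher in cDC2 and in CD103int DC and 2 of 5 in cDC1, with median differences of -0.16, -0.31 and -0.01, but with equal totals 5, 2 and 3 of 5 were higher, so the direction depended on the scaling. With each library centred on its constitutive subunits, all 5 were lower in cDC2 and CD103int DC than in macrophages, and 4 of 5 in cDC1, where Psmb9 was higher. Between cDC2 and CD103int DC all 5 were higher in cDC2, in both scalings, by a median of 0.15.

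The ratio of each inducible subunit to the one it replaces does not depend on library scaling. CPM is not per length, so these ratios do not count molecules, and only differences between libraries are read from them. Per kilobase, the ratio of Psmb8 to Psmb5 ran from 2.09 to 2.49 with the lengths of principal transcripts and was at most 1.20 with the lengths of all annotated exons.

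The ratio of Psmb8 to Psmb5 varied little, at 4.51 (4.36 to 4.67), 3.97 (3.83 to 4.12), 3.78 (3.66 to 3.90) and 4.46 (4.32 to 4.61). In cDC1 and macrophages it was the same within counting error, with a ratio of 1.01 (0.965 to 1.06) between them, and it was 1.19-fold (1.14 to 1.25) higher in cDC1 than in CD103int DC. Estimated reads of Psmb5 were fractions in all 4 libraries, and no single gene made them whole.

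The ratio of Psmb9 to Psmb6 set the cDC1 library apart. It was 2.42 (2.33 to 2.52) in cDC1 and 1.40 (1.35 to 1.44) in macrophages. The values of cDC2, 0.895 (0.864 to 0.926), and CD103int DC, 0.913 (0.884 to 0.944), lay within each other's intervals. In cDC1 it was 2.71-fold (2.57 to 2.85) above cDC2, 2.65-fold (2.52 to 2.79) above CD103int DC and 1.73-fold (1.65 to 1.82) above macrophages. As deposited, the low Psmb6 gave the larger share of the difference from CD103int DC: Psmb6 differed by 1.78-fold (1.71 to 1.85) and Psmb9 by 1.49-fold. The size of these shares depended on the scaling. With equal totals, cDC1 and CD103int DC had 82.4 and 136 CPM of Psmb6, and 199.5 and 124.6 CPM of Psmb9. With Psmb9 set against the mean of all constitutive beta subunits in place of Psmb6 alone, the log2 difference between cDC1 and CD103int DC was 0.74 and not 1.41.

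The ratio of Psmb10 to Psmb7 ran the other way. It stood at 0.539 (0.519 to 0.560), 0.851 (0.823 to 0.880), 0.762 (0.738 to 0.787) and 1.40 (1.36 to 1.45), lowest in cDC1 and highest in macrophages. The macrophage ratio was 2.60-fold (2.47 to 2.73) above that of cDC1, 1.65-fold (1.57 to 1.73) above cDC2 and 1.84-fold (1.76 to 1.92) above CD103int DC. As deposited both genes contributed, since macrophages had the highest Psmb10 and the lowest Psmb7. With equal totals macrophages kept the lowest Psmb7 (98.7 CPM), but Psmb10 was highest in cDC2 (142 against 138 CPM). Psmb7 is touched by the reads divided with Nek6, and the size of that effect was not tested.

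**Figure D3:**
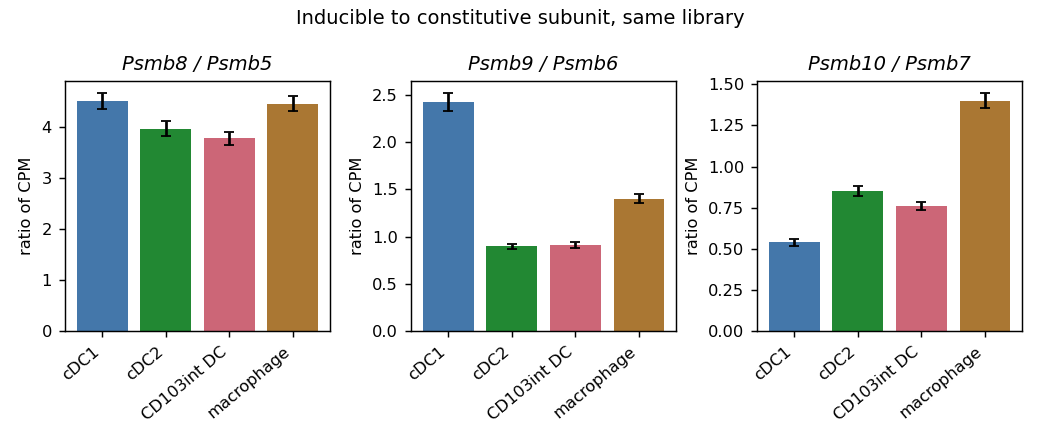
Ratio of CPM of each inducible subunit to the constitutive subunit it replaces, in the same library; bars start at 0, error bars are 95% intervals for counting error, and each panel has its own axis. Psmb8 to Psmb5 is nearly level, Psmb9 to Psmb6 is highest in cDC1 (2.42) and Psmb10 to Psmb7 is lowest there (0.539) and highest in macrophages (1.40).

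The 6 ATPases of the 19S base, the ring that unfolds the substrate, ranged from 48.2 to 133 CPM. Psmc4 was at 104, 87.6, 79.4 and 73.8 CPM and was the ATPase that stood highest in cDC1 relative to each other library. Psmc5 was at 73.7, 74.4, 75.1 and 54.3 CPM, level in the DC libraries and lower in macrophages. Psmc1 went against them as deposited, at 48.2, 61.5, 59.1 and 55.8 CPM, lowest in cDC1. So did Psmc6, at 59.2, 67.7, 66.5 and 62.5 CPM, with a ratio of highest to lowest of only 1.14. With equal totals both were lowest in macrophages.

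The 11 non-ATPase subunits include the scaffold subunits Psmd1 and Psmd2, the ubiquitin receptor Psmd4 and the deubiquitinase Psmd14. In 10 of the 11 the macrophage library was lowest. Psmd7, the partner of Psmd14, was at 54.8, 60.6, 57.6 and 43.3 CPM, and Psmd1 at 135, 129, 131 and 97.4 CPM. Psmd4, at 99.1, 102, 96.2 and 93.6 CPM, and Psmd2, at 278, 281, 294 and 268 CPM, were nearly even. Psmd8, a lid subunit, was the exception, at 106, 131, 127 and 141 CPM. It was the single constitutive subunit highest in macrophages, although with equal totals it was highest in cDC2 (136 CPM), and cDC1 was lowest in both scalings.

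The core and the cap differed slightly in how cDC1 compared with the other DC. All 14 constitutive core subunits were below their cDC2 level in cDC1 (median -0.12), while 6 of 17 cap subunits were above it (median -0.04). Against CD103int DC, 2 of 14 core subunits (median -0.14) and 7 of 17 cap subunits (median -0.02) were above 0. Of the cap subunits, 6 were highest in cDC1 of all libraries (Psmc3, Psmc4, Psmd1, Psmd3, Psmd6 and Psmd13) and of the core subunits none was. With equal totals the direction changed for many: 7 of 14 core (median -0.03) and 11 of 17 cap subunits (median 0.05) were above their cDC2 level in cDC1, and 5 of 14 (median -0.03) and 13 of 17 (median 0.08) above their CD103int DC level. 4 core and 11 cap subunits were then highest in cDC1. This contrast was not tested.

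Among the other activators, Psme4 was the member with the clearest difference. It encodes PA200, a cap linked to histone degradation and DNA repair (chr11:30771726-30880361, plus strand), and was at 81.2 (78.7 to 83.7), 96.3 (93.5 to 99.2), 99.5 (96.9 to 102) and 169 (165 to 172) CPM. The 3 DC libraries lay close together and the macrophage library above all of them, 2.08-fold above cDC1, 1.75-fold (1.69 to 1.82) above cDC2 and 1.70-fold (1.64 to 1.75) above CD103int DC. With equal totals the order was the same and the ratio to cDC1 was 1.61, so that the 2-fold call was lost. Psme3, the PA28 gamma subunit of the nucleus, ran the other way, at 109, 90.7, 97.1 and 77.2 CPM. Psmf1, the inhibitor PI31, was at 18.0, 23.4, 21.4 and 19.4 CPM.

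The 7 assembly factors were low, between 4.09 and 33.6 CPM. Psmd9, a chaperone of the 19S base, was at 20.2, 15.5, 15.6 and 11.6 CPM, and Psmd5, another one, at 26.6, 25.1, 26.4 and 16.8 CPM. Both were highest in cDC1 and lowest in macrophages, and with equal totals Psmd9 passed the 2-fold rule between these libraries. The third base chaperone, Psmd10, was at 28.4, 33.6, 28.4 and 26.5 CPM. Of the chaperones of the core, Psmg1 was at 7.58, 9.74, 9.93 and 5.48 CPM, Psmg2 at 5.22, 7.18, 8.66 and 4.09 CPM, Psmg3 at 4.42, 7.35, 8.03 and 7.95 CPM and Psmg4 at 10.8, 12.8, 13.6 and 12.0 CPM. All 4 core chaperones were highest in CD103int DC, in both scalings, but only the lead of Psmg2 over cDC2 exceeded counting error. The ratio of cDC2 to CD103int DC was 0.829 (0.720 to 0.955) for Psmg2. For Psmg1, Psmg3 and Psmg4 it was 0.982 (0.866 to 1.11), 0.916 (0.794 to 1.06) and 0.940 (0.843 to 1.05). Psma8, at 0.775 to 1.29 CPM, and Psmc3ip, at 0.586 to 2.26 CPM, were barely present.

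Partners of the proteasome outside the name rule were read from a list of 21 symbols, of which 18 were measured. In cDC1, 1 of 18 was called against cDC2 (16.8% of all genes), 1 against CD103int DC (14.6%) and 2 against macrophages (25%). Between CD103int DC and macrophages 1 was called (12.7%), and none was in cDC2 against CD103int DC (2.23%) or macrophages (7.79%). The 2 genes called were stress-linked zinc finger genes whose products bind the proteasome. Zfand2a was at 17.1, 53.8, 40.3 and 87.0 CPM, called lower in cDC1 than in each other library and lower in CD103int DC than in macrophages. Zfand5 was at 148, 185, 179 and 312 CPM and was called between cDC1 and macrophages. The cap subunit Sem1 was at 76.2, 120, 124 and 143 CPM, lowest in cDC1, whereas the core maturation factor Pomp, at 109, 123, 113 and 106 CPM, and the ubiquitin receptor Adrm1, at 67.3, 73.9, 65.6 and 63.6 CPM, were even. Uchl5, a deubiquitinase of the cap, ran the opposite way, at 23.8, 17.7, 17.3 and 12.4 CPM.

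Of the 4 listed regulators of proteasome genes, the transcription factor gene Nfe2l2 (NRF2) differed most, at 60.6, 257, 198 and 475 CPM. It was called lower in cDC1 than in each other library and lower in CD103int DC than in macrophages. Nfe2l1 (NRF1), the factor known to restore proteasome genes after inhibition, was at 108, 138, 137 and 122 CPM, and Ddi2, the protease that activates it, at 148, 134, 144 and 140 CPM. Of the 31 constitutive subunits only Psmd8 had the order of levels of Nfe2l2 as deposited. The polyubiquitin gene Ubb was at 996, 1146, 1009 and 1024 CPM, highest in cDC2.

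The genes that regulate or follow the inducible subunits were read beside them. Irf1, a factor known to drive Psmb9 and Tap1, was at 128, 235, 189 and 384 CPM, and Nlrc5, the activator of MHC class I genes, was at 131, 167, 144 and 331 CPM. Both had the order of Psmb10 and Psme2 as deposited, from cDC1 over CD103int DC and cDC2 to macrophages, and with equal totals Irf1 kept it. Irf1 and Nlrc5 were called lower than macrophages in cDC1 and in CD103int DC, and in none of the other 4 pairs. On the list of 15 interferon gamma response genes, which also holds Irf1 and Nlrc5, 13 were called lower in cDC1 than in macrophages (15.8% of all genes), 12 in CD103int DC (8.31%) and 5 in cDC2 (6.01%). Psmb8, Psmb9, Psmb10, Psme1 and Psme2, also known as interferon gamma targets, were called in no pair as deposited. Their ratios of highest to lowest library were 1.17, 1.49, 1.91, 1.16 and 1.55. The list was written with earlier results of these data known and is a description.

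**Figure D4:**
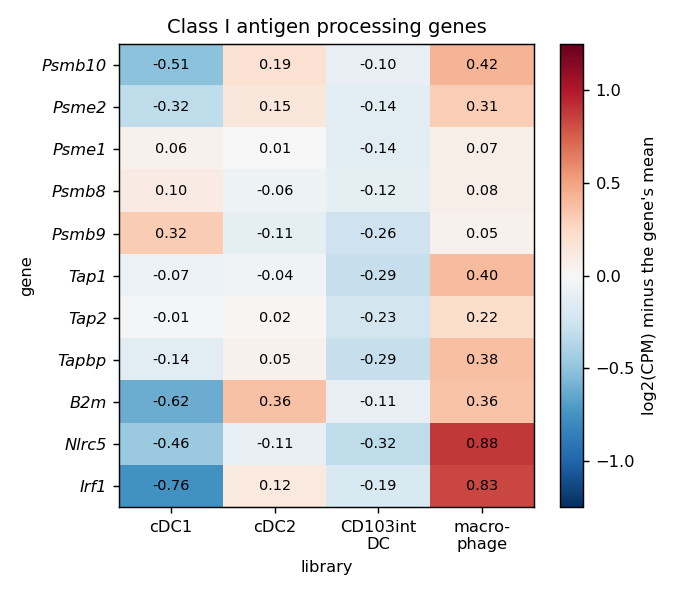
Level of the 5 inducible or PA28 genes and of 6 genes of MHC class I peptide supply in each library, as log2(CPM) minus the gene's mean over the 4 libraries; red is above and blue below that mean. Psmb10 and Psme2 run from cDC1 (-0.51 and -0.32) to macrophages (0.42 and 0.31) as Irf1 does, whereas Psmb9 is highest in cDC1 (0.32).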

How the data were processed

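The authors deposited 1 table of 13976 genes. Its signal, by the name of the authors' table, is filtered CPM with TMM scaling (trimmed mean of M values). Libraries were made with a directional kit, per the labels' protocols. Aligner, counting program, strand setting and build were not given in the sources used here. Each of the 13976 pairs of identifier and symbol was found in GENCODE M21 (GRCm38), the source of the coordinates.

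The value of 1 read was recovered from the steps between low values (0.0204, 0.0216, 0.0174 and 0.0183 CPM). Between 70.6% and 79.0% of values were whole multiples of it (tolerance 0.001), so the others were estimated reads and no count test was run. With 1 library per population a rule of size was used: a difference of log2(CPM + 1) of at least 1 (2-fold) with at least 10 CPM in the higher library, over 6 pairs. Poisson and exact binomial intervals (95%) cover counting error only, and amplified reads are not independent molecules. A member's reads were called divided with a gene where their sums were whole in all 4 libraries. The members and lists were chosen with earlier results of these data known. The rule for named genes was to account for every member and to print values in every library for Psmb5 to Psmb10, Psme1, Psme2, each member called and the most and least different subunit of each role. Genes beyond that were chosen after their values were seen. Some genes of the lists are not reported here. Alternatives covered scaling, pseudocount, minimum, threshold and denominators. The scripts were tested on simulated data and used Python 3.11.15, numpy 2.4.6, pandas 2.3.3, scipy 1.17.1 and matplotlib 3.10.9.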

Additional observations from a re-analysis of the deposited data

How the results depend on the processing

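No paired analysis was possible because each population had 1 library, and no replicate could be left out. Levels are limited more by scaling than by depth, since counting intervals were within a few percent for the subunits. Numbers of members called, in the order cDC1 against cDC2, CD103int DC and macrophage, cDC2 against CD103int DC and macrophage, and CD103int DC against macrophage, were 0, 0, 2, 0, 1 and 1. With equal totals the pairs cDC2 and CD103int DC against macrophage had 0 each, as with a pseudocount of 5, and cDC1 against macrophage had 2, with Psmd9 gained and Psme4 lost. A pseudocount of 0.1 gave 1 (Psmb6) for cDC1 against cDC2. With a minimum of 1 CPM, or none, CD103int DC against macrophage had 2, and centring on the constitutive subunits gave 3 for cDC1 (Psmb10 gained), 2 for cDC2 and 2 for CD103int DC against macrophage. The 1.5-fold threshold, a wider rule by construction, gave 2, 1, 6, 0, 2 and 4. Summing Psme2 and Psme2b, added after seeing the data, gave 1 for cDC1, 0 for cDC2 and 0 for CD103int DC against macrophage. The comparison with genes of the same mean level, and the ratios of highest to lowest library with equal totals, were also added then.

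The medians of the constitutive subunits, in the same order of pairs, were -0.06, -0.07, 0.14, 0.03, 0.24 and 0.26. With equal totals cDC1 minus cDC2 became 0.03 and cDC1 minus CD103int DC 0.03, a change of sign, and the differences from macrophage became 0.50, 0.51 and 0.52. Median-of-ratios scaling gave 0.22 (cDC2) and 0.24 (CD103int DC) from macrophage. The mean in place of the median gave -0.11 and -0.09 for cDC1 minus cDC2 and CD103int DC, and 0.23 for CD103int DC minus macrophage. The 20S alone gave -0.12, -0.14, 0.07, 0.05 and 0.35 for the first 5 pairs, and the 19S alone -0.04, -0.02, 0.21, 0.18 (cDC2 minus macrophage) and 0.16 (CD103int DC minus macrophage).

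Log2 differences in ratio from CD103int DC moved with the denominator. With all constitutive beta subunits, Psmb8 gave 0.39 in cDC1, 0.00 in cDC2 and 0.47 in macrophage (as reported 0.26, 0.07 and 0.24), and with the alpha subunits 0.40 in cDC1 and 0.46 in macrophage. Psmb9 gave 0.74 in cDC1 and 0.08 in cDC2 (as reported 1.41 and -0.03), and with the alpha subunits 0.75 and 0.15. Psmb10 gave -0.24 in cDC1 and 0.80 in macrophage (as reported -0.50 and 0.88), and with the alpha subunits -0.23, 0.29 in cDC2 (as reported 0.16) and 0.80. Apart from centring and the summed entry, the cause of these changes was not tested. With equal totals Psme4 in macrophage minus cDC1 fell short of the call at 0.68.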
